A study of Mus musculus with 115 samples.

Results

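Single dentate granule cells of non-epileptic mice differed widely in Arc, a gene switched on by synaptic activity, and the 27 cells compared here were chosen by the measured level of Arc itself. All 27 come from mice given saline and are EGFP- cells. They were selected on Arc read counts scaled to a total of 1000000 per cell (CPM) in the same libraries: the 13 Arc-high cells lie above the median of the 27, and the 14 Arc-low cells lie at or below it. They are 27 of the 95 cells in the quality-controlled table, and the labels describe 115 cells in all. Because Arc chose the cells, its own levels are given as a description, and so are all other genes of these libraries. No test was made.

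The mice were Rbp4-Cre mice, in which Cre is driven by the Rbp4 promoter. A retrograde AAV carrying EGFP was placed in the ventral hippocampus of the opposite side. EGFP+ cells are therefore those whose axons reach the opposite hippocampus, and EGFP- cells are those labelled as without EGFP. Whether an EGFP- cell had taken up that virus is not given by the labels. The saline was given on the recorded side together with AAV.cDIO-mCherry, a Cre-dependent reporter virus, and cells were taken from that side 2 weeks later whether or not they held mCherry. The kainic acid (KA) groups used for comparison received the same viruses with KA, an agonist of kainate-type glutamate receptors used to make mice epileptic, in place of saline. Each library is the cytosol of 1 cell drawn into a patch pipette, prepared with the Nextera XT kit; neither single molecules nor the strand of a read were marked. No label names the mouse of a cell, so the 27 cells are 1 sample of an unknown number of animals, and the spread over cells is not a spread over mice.

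Arc encodes a cytoskeleton-associated protein that acts in the endocytosis of AMPA receptors at dendritic spines, and its mRNA is carried into dendrites. It is an immediate early gene (IEG): calcium entry and kinase signalling start its transcription within minutes through factors already present, with no new protein needed. Other IEGs encode transcription factors such as Fos, Junb and the Egr and Nr4a families. A further group encodes effectors that act at the synapse or on signalling, such as Bdnf, Homer1, Nptx2 and Plk2. Dentate granule cells fire sparsely, and such genes are known to be on in few of them at a time.

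Of the IEG lists, 5 genes were among the 10 genes whose pattern over the cells was most like that of Arc, namely Klf2, Scg2, Junb, Egr2 and Jun. The 250 bases before the start of each, from RefSeq on GRCm38.p6, were searched on both strands for 4 motifs of activity-regulated promoters: the cAMP response element TGACGTCA, the AP-1 site TGACTCA or TGAGTCA, the EGR site GCGTGGGCG or GCGGGGGCG, and the CArG box bound by serum response factor. Klf2 (chr8:72318812-72319061, plus strand) held an EGR site, and Scg2 (chr1:79440027-79440276, minus strand) a cAMP response element. Both sequences are shown because these genes stand first and second in likeness to Arc. They are written 5′ to 3′ in the direction of transcription, and capitals mark the match.

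Klf2: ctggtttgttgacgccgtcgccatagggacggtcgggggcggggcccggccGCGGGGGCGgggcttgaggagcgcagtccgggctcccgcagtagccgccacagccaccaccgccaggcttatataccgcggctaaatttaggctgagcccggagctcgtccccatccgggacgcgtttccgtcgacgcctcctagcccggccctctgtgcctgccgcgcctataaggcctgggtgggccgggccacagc
Scg2: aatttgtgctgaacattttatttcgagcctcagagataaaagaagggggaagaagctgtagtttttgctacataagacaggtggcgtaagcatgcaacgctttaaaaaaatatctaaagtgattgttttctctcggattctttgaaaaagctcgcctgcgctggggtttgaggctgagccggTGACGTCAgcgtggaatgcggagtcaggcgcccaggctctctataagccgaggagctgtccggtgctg

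The Klf2 match lies 199 to 191 bases before the RefSeq start, and that of Scg2 68 to 61 bases before it. The GENCODE start of Scg2 lies 94 bases from the RefSeq start, inside the printed window. By the GENCODE start the Scg2 match therefore lies within the gene. Of 32851 mouse promoters of this length, 3.06% held the EGR site, 1.55% the cAMP response element, 4.46% the AP-1 site and 1.47% a CArG box. The windows of Junb (chr8:84978749-84978998), Egr2 (chr10:67535249-67535498) and Jun (chr4:95052223-95052472) held none of the 4. For Egr2 5 starts are listed, and only the window of the start nearest the GENCODE one was searched.

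Arc (chromosome 15, 74669083 to 74672570, minus strand, protein coding) reached 413 CPM in the lowest, 1538 in the median and 4242 CPM in the highest of the 13 Arc-high cells. The 14 Arc-low cells ran from 0 through a median of 5.62 to 401 CPM. On the scale of log2(CPM+1), used from here on, mean Arc was 10.54 (SD 1.26, n = 13 cells) and 3.70 (SD 3.29, n = 14 cells). The border falls in a continuous part of the range: the cells just below it had 290 and 401 CPM, and those just above 413 and 507 CPM. The Arc-low cells were not uniform either, as 3 of them had no Arc count and 8 lay under 10 CPM.

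**Figure D1:**
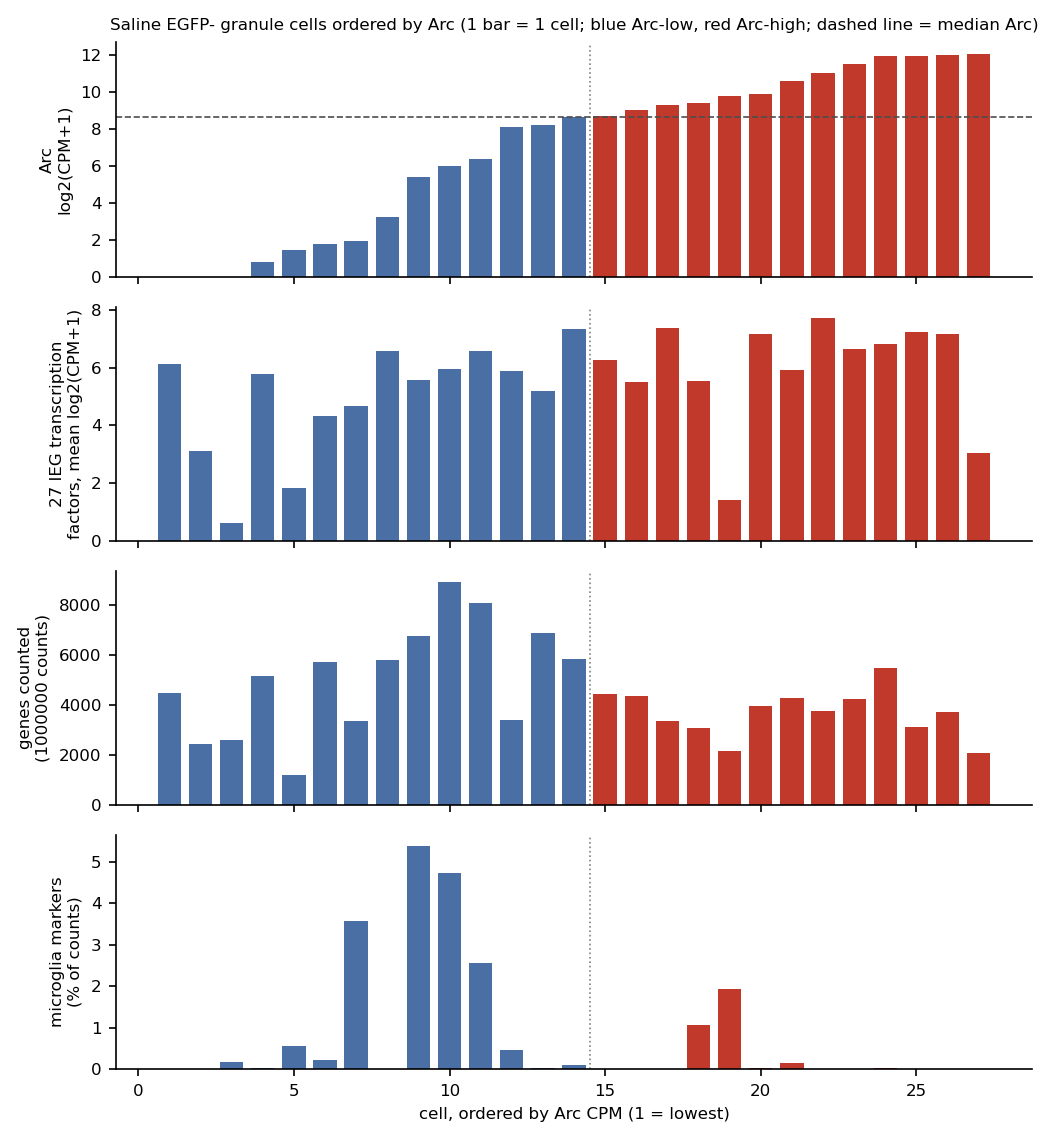
The 27 saline EGFP- cells in order of Arc CPM on the x axis (1 bar per cell, blue Arc-low, red Arc-high), with Arc as log2(CPM+1), the mean log2(CPM+1) of 27 IEG transcription factors, the number of genes counted in 1000000 counts, and the percent of counts in 16 microglia markers. Arc climbs without a gap at the median of 401 CPM, and the tallest microglia bars, up to 5.38%, stand among the Arc-low cells.

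Depth did not separate the cells. Total counts had a median of 4031150 in Arc-high and 3715630 in Arc-low cells, with a Spearman rho with Arc of 0.00 over the 27 cells. Arc-high libraries were less rich in genes: with each cell thinned to 1000000 counts, a median of 3775 genes was counted in Arc-high and 5463 in Arc-low cells (rho -0.17). Microglial RNA also moved with Arc. The 16 microglia markers took a median of 0.0091% of counts in Arc-high cells (range 0 to 1.93%) and 0.191% in Arc-low cells (0 to 5.38%; rho -0.38), and 3 of 13 against 9 of 14 cells had at least 0.1%. These 12 cells are called microglia-rich below, and main values are repeated without them, in 10 Arc-high and 5 Arc-low cells. In title order the saline cells form 3 runs parted by KA cells, with 4 Arc-high and 2 Arc-low cells in the lowest title numbers, 1 and 5 in the middle ones, and 8 and 7 in the highest. The labels call 11 of 13 and 11 of 14 cells passed, so 5 cells of the quality-controlled table are labelled failed, and 7 of the 14 saline EGFP- cells absent from it are labelled as passed. The labels of quality and the table thus disagree by cell. If treatment or EGFP labels were displaced as well, other cells would be compared, which was not tested.

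The cells carried granule cell markers on both sides of the Arc border. Prox1, the transcription factor that sets granule cell fate, was counted in 9 of 13 Arc-high and 10 of 14 Arc-low cells after thinning. Calb1, the calcium buffer calbindin, was counted in 13 of 13 and 13 of 14 cells, and C1ql2, a synaptic organiser secreted at mossy fibre terminals, in 12 and 12. Of 22 measured granule cell identity genes, 12 had a higher mean in Arc-high cells, and their median difference was 0.05. Differences of at least 2 were -2.88 for Lct, -2.23 for Pdzd2, -2.18 for Neurod2, 2.44 for Ahcyl2 and 2.33 for Sema5a, against 0.41 for Prox1, 0.33 for Calb1 and 1.18 for C1ql2.

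Markers of other neurons stayed near 0. Gad2 and Slc32a1, which define inhibitory interneurons, were counted in 0 and 2 Arc-high and in 3 and 0 Arc-low cells, and Drd2 of mossy cells in none. Gad1, which mature granule cells are known to transcribe, was counted in 12 of 13 and 12 of 14 cells. Among glial and vascular markers, Gfap was counted in 2 and 5 cells, Mog in 0 and 3, and Cldn5 in 0 and 2. None of 14 endothelial and mural markers was counted in enough cells to be measured, and only 2 of 16 oligodendrocyte lineage markers were.

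Across the transcriptome the balance lay toward lower values in Arc-high cells. A gene was called measured when it was counted in at least 9 of the 27 cells after thinning, with Arc left out, which 5912 genes met. It was called higher or lower when the difference of mean log2(CPM+1), Arc-high minus Arc-low, was at least 2 in size. By that rule 198 genes (3.35%) were higher and 714 (12.1%) lower, and the median difference of all 5912 was -0.51. Of the called genes 21.7% were thus higher. With the number of genes counted as a covariate, 641 genes were higher and 289 lower (68.9% higher), and the median difference was 0.30. Over all measured genes 2049, or 34.7%, had a positive difference. The counts of list members of the saline cells below are to be read against that share. A relative median is a list median minus the median of all measured genes.

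Transcription factors of the IEG list stood above that background. Of 27 measured members, 17 had a positive difference, 8 were at least 2 higher and 1, Klf6, at least 2 lower. Their median difference was 1.51, or 2.02 above that of all genes. The 25 measured IEG effectors had 21 positive differences, 8 genes at least 2 higher, none at least 2 lower, and a median of 1.14, or 1.65 above that of all genes. Without the microglia-rich cells, 19 of 27 and 23 of 25 were positive, with medians of 0.79 and 0.70 against -0.59 for all genes. The relative medians ran from 1.16 to 2.28 for the transcription factors and from 0.76 to 2.17 for the effectors over 15 other settings, all positive. With title run as a factor they were 2.02 and 1.09.

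**Figure D2:**
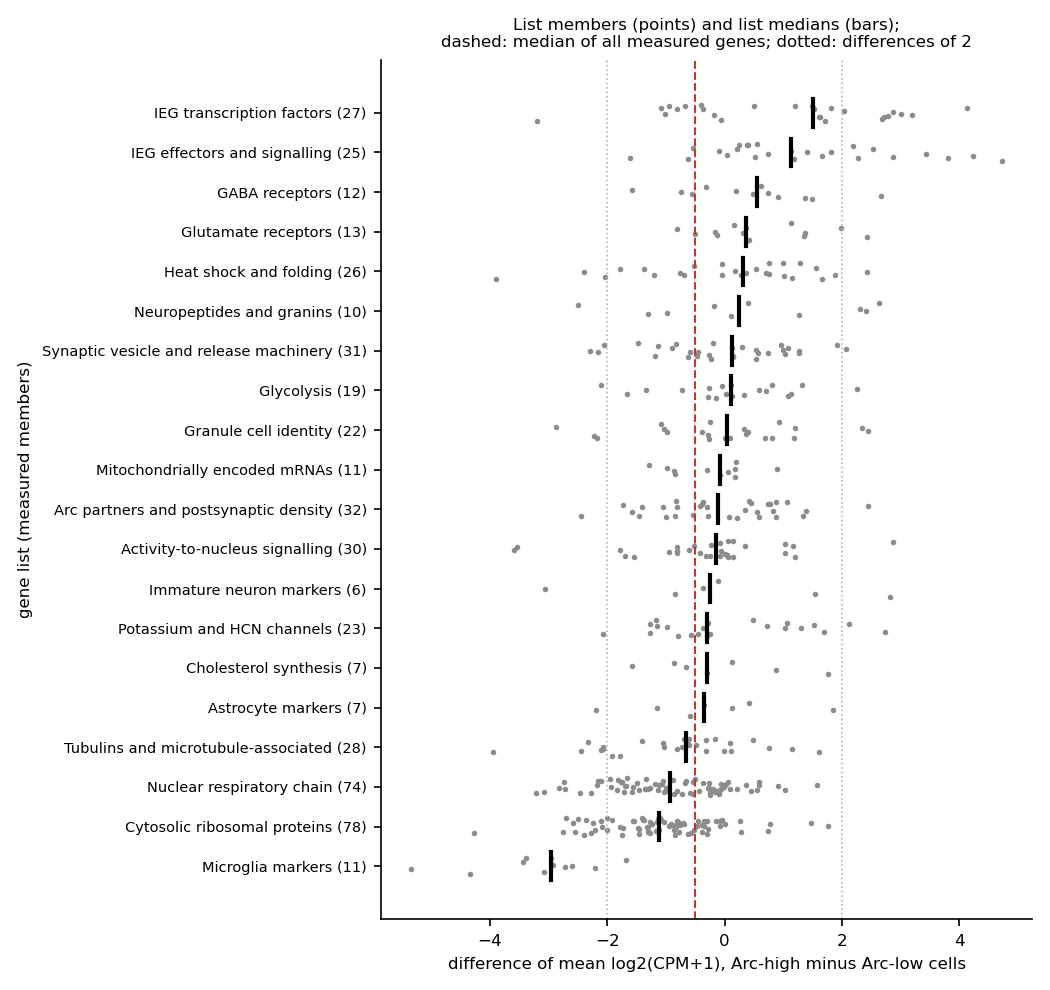
Difference of mean log2(CPM+1), Arc-high minus Arc-low cells, on the x axis for the measured members of 20 gene lists (grey points; black bars are list medians; the number of measured members is in brackets). The red dashed line is the median of all measured genes (-0.51) and dotted lines mark differences of 2; both IEG lists have their medians highest (1.51 and 1.14) and the microglia markers lowest (-2.96).

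Likeness to Arc, measured as Spearman rho of the gene with Arc over the 27 cells, which share library preparation and depth effects, gave the same picture without the border. Of the 52 measured IEGs, 47 had a positive rho, with a median of 0.25 against -0.03 for all measured genes. Of the 50 genes with the highest rho, 10 were IEGs. That is 20% of the 50 and 19.2% of the IEGs, which make up 0.88% of measured genes. IEGs also went with each other, with a median rho over pairs of 0.22 against 0.10 for pairs of all measured genes. Most single values are weak, and a weak rho in sparse counts is not read as a relation.

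**Figure D3:**
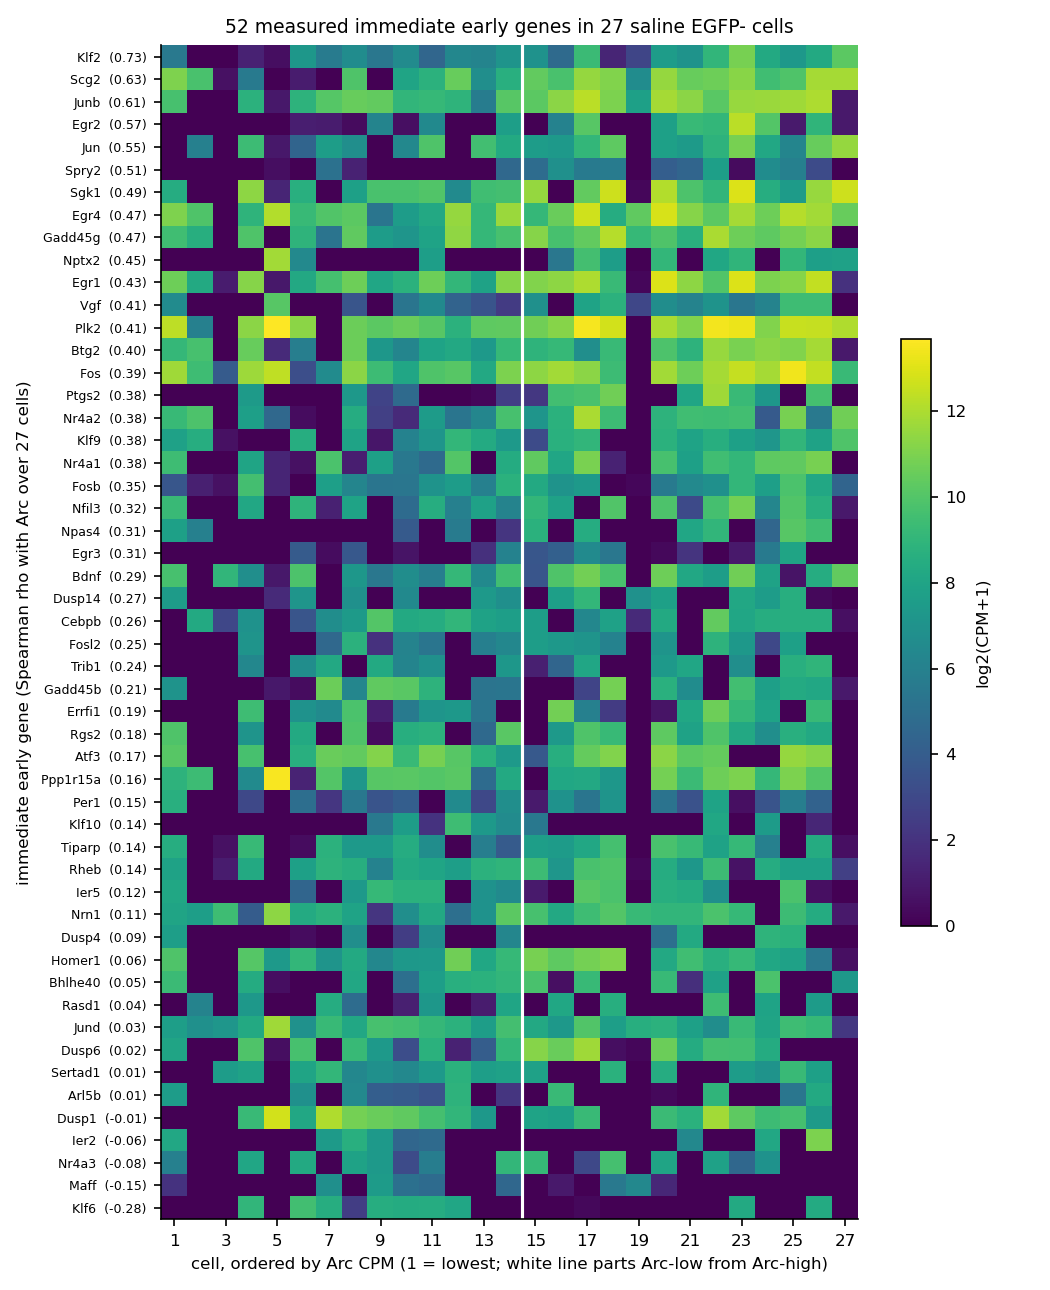
Level (colour, log2(CPM+1)) of the 52 measured immediate early genes (y axis, ordered by Spearman rho with Arc, in brackets) in the 27 saline EGFP- cells (x axis, ordered by Arc CPM; the white line parts 14 Arc-low from 13 Arc-high cells). Klf2, Scg2, Junb, Egr2 and Jun lead with rho from 0.73 to 0.55, and 5 genes from Dusp1 to Klf6 have a negative rho.

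Klf2, a zinc finger transcription factor (chromosome 8, 72319033 to 72321656), was the gene most like Arc, with a rho of 0.73 over all 27 cells and 0.80 over the 15 cells that were not microglia-rich. Arc-high cells had 1.64, 192 and 1873 CPM (lowest, median, highest) and Arc-low cells 0, 48.4 and 153 CPM. The highest 4 Klf2 levels, from 520 to 1873 CPM, were all in Arc-high cells, although 3 Arc-high cells lay under the Arc-low median. Its mean was 7.23 (SD 2.77) against 4.51 (SD 2.77), a difference of 2.72, and 4.34 without the microglia-rich cells.

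Scg2 encodes secretogranin II, a dense-core vesicle protein that is cut into the peptide secretoneurin (chromosome 1, 79434669 to 79440120). It had the largest positive difference of the 5912 measured genes, 4.74, with a rho of 0.63. Its lowest, median and highest levels were 101, 1633 and 3710 CPM in Arc-high and 0, 182 and 2085 CPM in Arc-low cells. All 13 Arc-high cells and 9 of 14 Arc-low cells had a count after thinning. The ranges overlapped, since the cell with the most Scg2 among the Arc-low ones had no Arc count. The difference was 2.21 without the microglia-rich cells and 2.31 for summed counts.

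Among the AP-1 genes, whose proteins pair to bind the AP-1 site, Junb (chromosome 8, 84974484 to 84978718) had a rho of 0.61. It ran through 0.93, 2520 and 4987 CPM in Arc-high cells and 0, 497 and 1474 CPM in Arc-low cells. The mean difference was 3.00 (10.30, SD 3.04, against 7.30, SD 3.97), and no Arc-low cell reached the Arc-high median. Exons of Junb overlap those of Prdx2, and reads there cannot be told apart without strand. Jun differed by 3.19 (rho 0.55) and Fosb by 1.20 (rho 0.35).

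Fos, the most used marker of recent activity, separated the cells less. Its levels were 0, 3508 and 10615 CPM in Arc-high and 8.89, 831 and 5263 CPM in Arc-low cells, a mean of 10.59 (SD 3.39) against 9.08 (SD 2.81). It was counted in 12 of 13 and in 14 of 14 cells, so that the presence of Fos did not follow Arc and the difference of 1.51 came from its level.

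The Egr family of zinc finger factors differed among its members. Egr2 (chromosome 10, 67535475 to 67542188) was at 0, 220 and 4873 CPM in Arc-high and 0, 0.15 and 200 CPM in Arc-low cells. After thinning 10 of 13 and 5 of 14 cells had a count. Its difference was 4.13 (rho 0.57), and 6.54 without the microglia-rich cells. Egr4 differed by 2.03, Egr3 by 1.63 and Egr1 by 1.53. Egr1 and Egr4 were counted in nearly all cells on both sides, with 13 of 13 and 14 of 14 cells for Egr1 and 13 of 13 and 13 of 14 for Egr4, whereas Egr2 was mostly at or near 0 in Arc-low cells.

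Of the Nr4a orphan nuclear receptors, Nr4a2 differed by 2.88, Nr4a1 by 2.78 and Nr4a3 by -0.19. Without the microglia-rich cells Nr4a1 differed by 5.21 and Nr4a2 by 0.36. Npas4, a neuron-specific IEG factor, was counted in 7 of 13 and 5 of 14 cells and differed by 2.68. Btg2, an antiproliferative coregulator, differed by 1.81 and by -0.22 without the microglia-rich cells. Ier2 (-0.95) and Klf6 (-3.20) were lower in Arc-high cells. Klf6 was counted in 2 of 13 against 8 of 14 cells, and its difference was -0.59 without the microglia-rich cells.

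**Figure D4:**
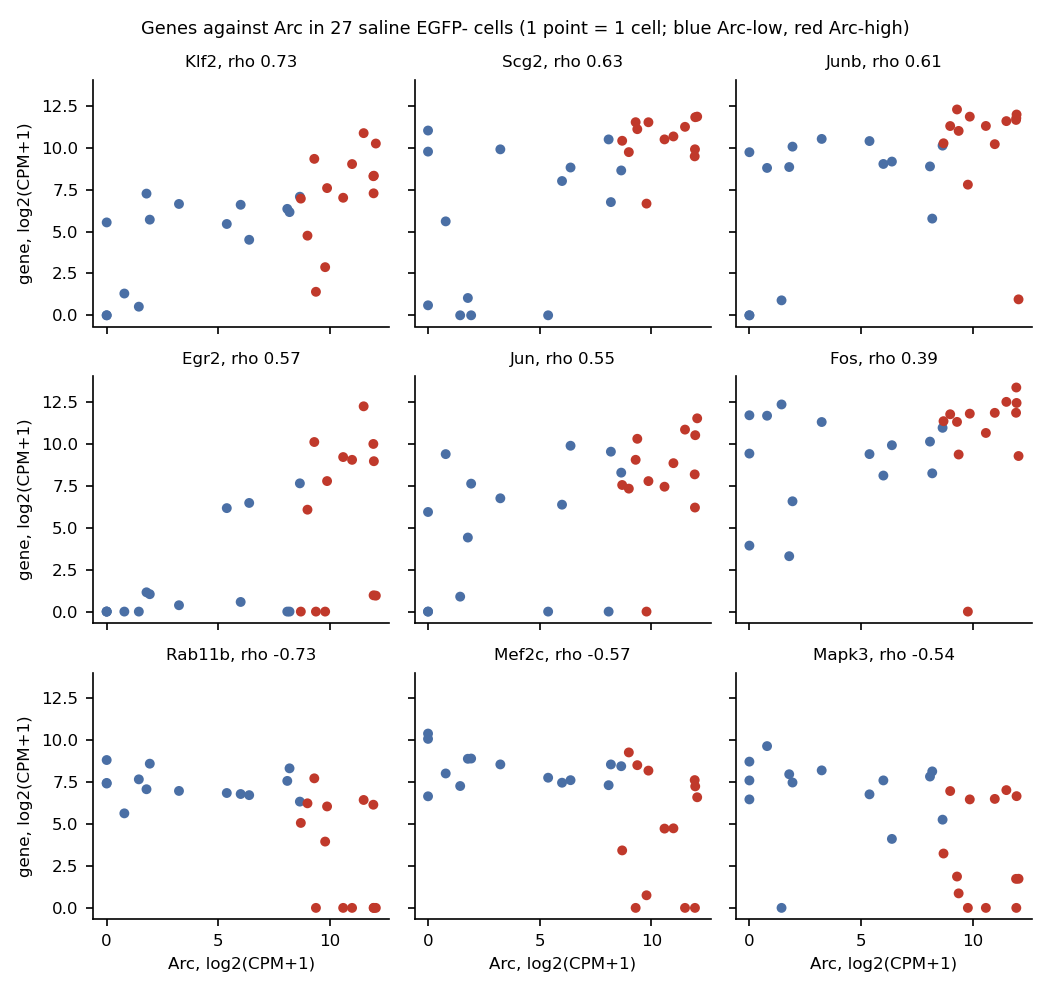
Level of 9 genes (y axis) against Arc (x axis), both as log2(CPM+1), in the 27 saline EGFP- cells (1 point per cell, blue Arc-low, red Arc-high), with each gene's Spearman rho. Klf2, Scg2, Junb, Egr2 and Jun are highest at the right, Fos is present at nearly every Arc level, and Rab11b, Mef2c and Mapk3 fill the left side but drop to 0 in several Arc-high cells.

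Synaptic and signalling effectors made up the other arm. Ptgs2, which encodes cyclooxygenase-2, was counted in 9 of 13 Arc-high and 5 of 14 Arc-low cells. Its levels were 0, 266.6 and 3408 CPM against 0, 0 and 177 CPM, a difference of 4.23. Nptx2, a secreted pentraxin that gathers AMPA receptors, was counted in 9 and 3 cells and differed by 3.80. The Nptx2 maximum among Arc-low cells was 3565 CPM, in a single cell, so that the difference for summed counts was only 0.79. Spry2, an inhibitor of receptor tyrosine kinase signalling, differed by 3.44, Vgf, a neuropeptide precursor, by 2.88 and the kinase gene Sgk1 by 2.53. Plk2, a kinase that acts at active synapses, differed by 2.28 and Bdnf, the neurotrophin, by 1.41. Homer1 (0.53), whose short form is an IEG product, and the phosphatase gene Dusp1 (-0.09) differed little in mean, though Dusp1 differed by 2.81 without the microglia-rich cells.

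Genes outside the IEG lists shared the pattern. Plppr2, a phosphatase-related membrane protein of neurons, differed by 3.24 (rho 0.55), Ociad1 by 4.26 (rho 0.54), and Nudt5, a hydrolase of ADP-ribose whose exons overlap those of 3 other genes in the table, by 3.09 (rho 0.54). Hsp90aa1, a cytosolic chaperone, had a rho of 0.54 with a narrow range of 240 to 904 CPM in Arc-high cells against 7.19 to 771 CPM in Arc-low cells. Ahcyl2 had a rho of 0.54 and differed by 2.44. By size of difference the list went on with the adhesion receptor gene Cxadr (3.90), whose exons overlap Btg3, Maco1 (3.79) and Hnrnpll (3.72). Then came Ttyh1 (3.66), Pcdh8 (3.64), Snhg11 (3.56) and the bicarbonate transporter gene Slc4a10 (3.54). Pcdh8, the activity-induced protocadherin arcadlin, ran through 0, 2519 and 4716 CPM in Arc-high and 0, 146 and 2529 CPM in Arc-low cells.

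The genes least like Arc were led by Rab11b, a small GTPase of recycling endosomes (chromosome 17, 33742484 to 33760530), with a rho of -0.73. It was counted in all 14 Arc-low cells, from 48.9 through 152 to 452 CPM, and in 7 of 13 Arc-high cells, from 0 through 14.5 to 211.5 CPM. The difference was -4.10, and -3.40 without the microglia-rich cells. Other genes of membrane traffic stood beside it: Vta1 of endosomal sorting (-4.70, counted in 2 against 10 cells), Cope of the COPI coat (-5.03, in 4 against 13) and Ccz1, which acts on late endosomes (-4.43, in 1 against 10). They were chosen by rho and difference, and no list of traffic genes was tested.

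Galt, an enzyme of galactose breakdown whose exons overlap those of another gene in the table, was counted in 0 of 13 Arc-high and 9 of 14 Arc-low cells (-4.59, rho -0.69). It met the rule for measured genes through Arc-low cells alone, so its difference and rho are not read as a result. Nono, an RNA-binding protein of nuclear paraspeckles, was counted in 1 against 11 cells (-4.78), and Nnat, which encodes neuronatin, in 3 against 13 (-4.54). Yrdc (-5.09), Nap1l1 (-4.47) and Ube2a (-4.37) followed. Csf1r (-5.35), Ctsd (-4.90) and Ly86 (-4.33) also belong to the largest negative differences, and Csf1r and Ly86 are microglia markers. Exons of Csf1r and Yrdc overlap those of other genes in the table. Nono, Ccz1 and Csf1r met the rule for measured genes with only 1 Arc-high cell each. Arc-low cells had more genes counted after thinning, a median of 5463 against 3775. Such counts from nearly 1 side are likewise not read as results about these genes.

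The route from synapse to nucleus lay near the background. Of 30 measured genes of calcium, kinase and CREB, SRF and MEF2 signalling, 12 had a positive difference, 1 was at least 2 higher and 2 at least 2 lower, with a median of -0.15 (relative median 0.36). The positive share was 40%, against 34.7% of all genes. Mef2c, a transcription factor that limits excitatory synapse number (chromosome 13, 83504034 to 83667080), was present in every Arc-low cell at 100 to 1354 CPM. In Arc-high cells it ran from 0 through 25.9 to 620 CPM, counted in 9 of 13. Its difference was -3.58, and -3.73 without the microglia-rich cells. Mapk3, which encodes the kinase ERK1, differed by -3.53 (10 of 13 against 13 of 14 cells). Rasgrf1, a calcium-dependent activator of Ras, was higher by 2.88, and by 0.79 without the microglia-rich cells. Camk2a differed by 1.20 and -0.48 in these comparisons.

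Genes of Arc's protein partners and of the postsynaptic density lay a little above the background. Of 32 measured, 16 had a positive difference, 1 was at least 2 higher and 1 at least 2 lower, with a median of -0.10 (relative median 0.41). Sh3gl3, an endophilin of the family that Arc binds in endocytosis, differed by 2.44 and Dnm1, a dynamin, by 1.38. Dlg4, which encodes PSD-95, differed by -2.45 and was counted in 4 against 11 cells.

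Receptor genes lay above the background as well. Of 13 measured glutamate receptor genes, 9 were positive (median 0.37, relative 0.88), led by the AMPA receptor subunits Gria1 (2.42) and Gria3 (1.99). Gria1 was counted in every cell, at 62.1, 907 and 2557 CPM in Arc-high and 0.86, 198 and 873 CPM in Arc-low cells, but differed by only 0.43 without the microglia-rich cells. Of 12 GABA receptor genes 8 were positive (median 0.55, relative 1.06), and 6 without the microglia-rich cells (median -0.04). In potassium and HCN channel genes 9 of 23 were positive (median -0.29, relative 0.22), with Kcna3 at 2.74, Dpp6 at 2.11 and Kcnj3 at -2.07. For the synaptic vesicle machinery it was 16 of 31 (median 0.12, relative 0.63), from Napb at -2.30 to Pclo, a scaffold of the active zone, at 2.08.

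Dense-core vesicle genes other than Scg2 were mixed. Of 10 measured neuropeptide and granin genes, 6 were positive (median 0.25, relative 0.77) and 3 were at least 2 higher: Chgb (2.64) and Scg3 (2.31), both granins, and the prohormone convertase gene Pcsk2 (2.40). Cck, a neuropeptide precursor, was 2 or more lower (-2.49), and Pdyn (-0.98) and Chga (-1.31) were on the same side. Without the microglia-rich cells the median of these 10 was -0.13 relative to all genes.

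Ribosomal protein and nuclear respiratory chain genes had medians below that of all genes. Of 78 measured cytosolic ribosomal protein genes, 7 had a positive difference, none was at least 2 higher and 14 were at least 2 lower (17.9%, against 12.1% of all genes), with a median of -1.11 (relative -0.60). Rps20 (-4.28, rho -0.63) and Rps29 (-2.36, rho -0.62) were among the 10 genes least like Arc. The share of all counts in this list had a median of 0.417% in Arc-high and 0.663% in Arc-low cells (rho -0.47). Nuclear genes of the respiratory chain had 12 of 74 positive and 10 at least 2 lower (13.5%, near the share of all genes), with a median of -0.94 (relative -0.43). Mitochondrially encoded mRNAs lay above the background by median difference, with 5 of 11 positive (median -0.08, relative 0.43), but not by other measures. Only 1 of 11 had a positive rho with Arc, with a median of -0.13 against -0.03 for all genes. With the number of genes counted as a covariate 4 of 11 were positive, against 3462 of 5912 genes. Their relative median kept its sign in 9 of 15 other settings and fell to -0.55 in 1. Without the microglia-rich cells the ribosomal protein median was -0.80 and the nuclear respiratory chain median -0.91, against -0.59 for all genes.

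Microglia markers themselves had the lowest list median, -2.96, with 0 of 11 measured members positive and 10 at least 2 lower. Tmem119 was counted in 0 of 13 Arc-high and 5 of 14 Arc-low cells and Csf1r in 1 and 11. Without the microglia-rich cells, which were set apart by these markers, the median was -0.65. In heat shock genes 15 of 26 were positive (median 0.32, relative 0.83), from Stip1 at -3.89 to Dnajb4 at 2.42. Glycolysis genes had 11 of 19 positive (median 0.11, relative 0.63), and the tubulin and microtubule genes 6 of 28 (median -0.65, relative -0.14). Cholesterol synthesis genes had 3 of 7 positive (relative median 0.21), immature neuron markers 2 of 6 (0.27) and astrocyte markers 3 of 7 (0.16). The sign of the relative median held in only 6 of 14 other settings for cholesterol synthesis and in 11 of 15 for astrocyte markers. Of mossy and pyramidal cell markers 2 of 3 measured were positive, of interneuron markers 2 of 2 and of oligodendrocyte lineage markers 0 of 2.

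Arc and the other IEGs were not always present together. In the 8 cells with less than 10 CPM of Arc, Fos was counted in 8, with a median of 1616 CPM, and Egr1 in 8, with a median of 557 CPM. Egr4 was counted in 7, and Junb and Plk2 in 6 each. Egr2 was counted in 1 of these cells, and Ptgs2 and Nptx2 in 2 each. One cell with no Arc count had 3364 CPM of Fos and a mean of 6.12 over the IEG transcription factors, above the Arc-low median of 5.67. The reverse occurred too: the cell with the most Arc, 4242 CPM, had a mean of 3.05 over these factors and 0.93 CPM of Junb, and the cell of 879 CPM Arc had 0 Fos. Those Arc-high cells had the fewest genes counted of the 13, at 2070 and 2156.

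The split was repeated in KA cells, which share no cell with the saline cells, each set parted at its own Arc median. The 36 KA EGFP- cells had an Arc median of 204.2 CPM, with 12 cells at 0. There 23 of 23 IEG transcription factors measured in both sets were positive (median 1.74) and 23 of 24 effectors (median 2.49), but the median of all genes was 1.20 as well. Arc-high KA EGFP- cells had a median of 6158 genes counted and Arc-low ones 3572, the opposite order to saline cells. In the 27 KA EGFP+ cells (Arc median 141 CPM), 23 of 25 transcription factors were positive (median 2.19, all genes 0.66) and 20 of 24 effectors (median 0.80).

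Within the KA EGFP- cells the title series differed. In the 21 cells of the first title series (numbers 1 to 48), where the median of all genes was 0.03, 23 of 26 IEG transcription factors (median 1.52) and 20 of 25 effectors (median 0.64) were positive. In the 15 cells of the second series (higher numbers, as for all saline cells), of which 9 had no Arc count, 9 of 18 transcription factors (median 0.17) and 6 of 16 effectors (median -0.99) were positive, against -0.25 for all genes. Whether these series differ from each other was not tested.

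Single genes moved differently in the KA sets. Klf2 differed by 2.72 in saline EGFP-, 2.59 in KA EGFP- and 2.35 in KA EGFP+ cells, and Jun by 3.19, 3.14 and 3.59. Scg2 differed by 4.74, 1.20 and -0.02, and Egr2 by 4.13, 1.30 and 2.19. Fos, at 1.51 in saline cells, differed by 3.95 and 3.49. These values are to be read against the median of all genes, -0.51 in saline EGFP-, 1.20 in KA EGFP- and 0.66 in KA EGFP+ cells. In KA EGFP- cells Scg2 and Egr2 were near that median, and Klf2 stood less far above it than in saline cells. The KA EGFP- values pool both title series. In the second series, to which all saline cells belong, Klf2 differed by 0.16, Jun by -0.89, Scg2 by -2.66, Egr2 by -0.87 and Fos by 2.35. In the first series they differed by 1.34, 1.89, -1.07, 0.24 and 2.75. The median of all genes was 0.03 in the first series and -0.25 in the second. On the negative side Mef2c, at -3.58 in saline cells, differed by 0.89 and 0.13, Mapk3 by 1.05 and 1.56, and Rab11b by -0.58 and 0.15. In KA EGFP- cells Mef2c, Mapk3 and Rab11b all lay below the median of all genes. In KA EGFP+ cells Mapk3 lay above it, and Mef2c and Rab11b below it. In the second KA EGFP- series these differed by -2.68, -0.87 and 0.82. Cytosolic ribosomal protein genes had 71 of 78 positive in KA EGFP- cells, with a median of 1.33, or 0.12 relative to all genes there. In KA EGFP+ cells 37 of 78 were positive, with a median of -0.04, or -0.70 relative to all genes there. The share of all genes with a positive difference in KA cells is not given here. Across all genes measured in both sets the saline differences had a Pearson correlation of -0.06 with those of KA EGFP- cells (5283 genes) and 0.08 with those of KA EGFP+ cells (5541 genes). Over the IEGs alone it was -0.14 in KA EGFP- cells (47 genes), -0.44 in their second title series (34 genes) and 0.03 in KA EGFP+ cells (49 genes). This is across genes, which are not independent replicates.

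**Figure D5:**
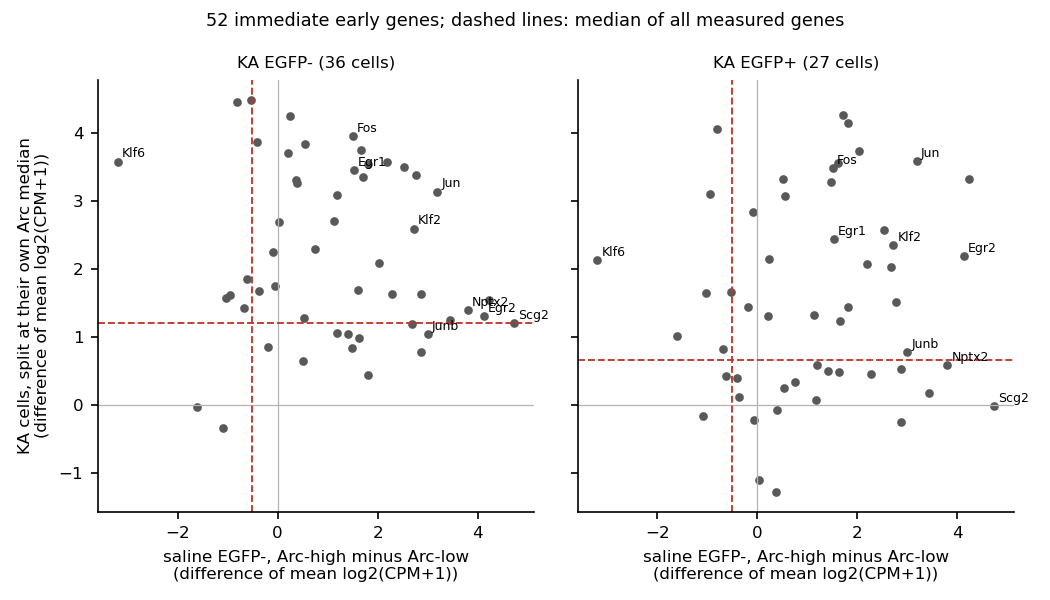
Difference of mean log2(CPM+1) between Arc-high and Arc-low cells for the 52 immediate early genes measured in saline EGFP- cells (x axis) and the same genes in 36 KA EGFP- cells and 27 KA EGFP+ cells (y axes, each set parted at its own Arc median). Red dashed lines are the medians of all measured genes (-0.51 for saline, 1.20 and 0.66 for KA); Klf2 and Jun are positive on both axes in both panels, whereas Scg2 lies at 4.74 on x and near 0 in KA EGFP+ cells.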

How the data were processed

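Cytosol of single dentate granule cells was sequenced. The tools named per the submitters' processing notes are kallisto, featureCounts, STAR and Trimmomatic, with build GRCm38; the role of each tool is not given in the sources used here. The authors deposited whole-number read counts by gene symbol, in 1 table of all cells and 1 of those kept by quality control, and a normalized signal that was used as an alternative only; how its factors were computed is not stated per the labels. Without molecular barcodes, reads are not independent molecules, and counts of copies or overlapping genes can be split arbitrarily. The 92 spike-in rows held 0 counts in the 27 cells and were left out. No pair of cells had identical counts.

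CPM was the count divided by the cell's total, times 1000000. Means and SDs over cells of log2(CPM+1), their difference, Spearman rho with Arc over 27 cells, and rho after the number of genes counted was regressed out of the ranks were computed with Python 3.11.15, numpy 2.4.6 and pandas 2.3.3. Cells were thinned to 1000000 counts for counts of cells. Depth per cell was at least 1916930 counts. How much of the spread between libraries comes from the cells and how much from library preparation was not measured. Scaling factors of the TMM alternative came from edgeR 4.0.16. The scripts were tested on simulated data.

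No replicate-based test was possible: cells are not replicates and the mice are not named. Named genes are the 10 with the highest and lowest rho, the 12 with the largest difference in each direction whose sign held after thinning, with the covariate and without microglia-rich cells, the 3 largest per list, and a preset list; Scg3, Spry2, Vgf, Sgk1, Dnm1, Pdyn, Chga and marker genes were added after their values were seen. The members, the 24 lists and the rules were chosen with earlier results of these data known. Gene coordinates are from GENCODE M21 (GRCm38) and promoters from RefSeq (GRCm38.p6); 22566 of 22870 symbols were found in GENCODE. Some items are not reported here. Cells absent from the quality-controlled table were left out.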

Additional observations from a re-analysis of the deposited data

Results flagged for a closer look

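Arc was also counted in libraries that the comparison does not use. Of 14 saline EGFP- cells absent from the quality-controlled table, 4 had more than 3 Arc counts, the limit that a count of 0 allows, and 9 had none. The highest had 5158 Arc counts, or 4680 CPM, above the highest of the 27 cells compared. These libraries held 17 to 1287711 counts, with a median of 621413 and of 1290.5 genes counted.

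In the 5 saline EGFP+ cells, Arc was at 0 in 4 and reached 3.38 on the log2(CPM+1) scale, or 9.43 CPM, in 1, which stood apart from the other 4. All 5 had microglia markers at 0.534% to 5.00% of counts.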

How the results depend on the processing

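The medians of both IEG lists stayed above that of all genes in all 15 alternatives. Counts of genes at least 2 higher and lower, 198 and 714 at first, were 369 and 1364 with the authors' normalized signal, 42 and 82 with a pseudocount of 10, 641 and 289 with genes counted as a covariate, 355 and 1181 without the microglia-rich cells, 401 and 371 for summed counts, and 80 and 171 among the 1738 genes counted in 18 of 27 cells, where fewer genes were tested. The number higher was 521 for the 9 highest against the 9 lowest cells, with 606 lower, and 1650 for the 24 cells with an Arc count against the 3 without one, with 623 lower. The share of calls that were higher, 21.7% at first, was 33.9% with a pseudocount of 10, 46.2% for 9 against 9 cells, 51.9% for summed counts and 72.6% for Arc counted against not counted. The median of all genes was -0.69 under TMM scaling and -0.74 with the authors' signal. The causes of these shifts were not tested.

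Mitochondrially encoded mRNAs changed sign among several settings, as given above. The relative median of cholesterol synthesis genes kept its sign in only 6 of 14 other settings and fell to -1.07 for 9 against 9 cells. That of astrocyte markers kept its sign in 11 of 15 and fell to -0.49 in cells labelled as passed. Reversals otherwise came mostly from the setting that rests on 3 cells without an Arc count. There the median relative to all genes was -1.07 for activity-to-nucleus signalling, -0.60 for Arc partners, -1.39 for glutamate receptors, -1.14 for GABA receptors, -0.40 for the vesicle machinery, -0.21 for neuropeptides, -0.88 for granule cell identity, 3.09 for microglia markers and 0.18 for ribosomal proteins. Of 122 named genes 39 changed sign there, 23 of them with a first difference under 2 in size, among these C1ql2 (-2.65), Prox1 (-2.73) and Calb1 (-2.05). Those with a first difference of at least 2 were Apoe (3.47), Atp5c1 (0.40), C1qb (4.58), Ctsd (0.95), Dlg4 (0.28), Gria1 (-1.63), Klf6 (3.34), Ldha (0.91), Ly86 (3.80), Napb (0.060), Npas4 (-1.66), Rpl27a (0.45), Slc4a10 (-0.50), Syngr1 (1.37), Tyrobp (4.41) and Ube2a (0.78). Without the microglia-rich cells neuropeptides (-0.13), Apoe (1.56), C1qb (1.01) and Eno2 (-0.22) reversed, and for summed counts Dync1h1 (0.53). Leaving out each cell in turn reversed none of the lists or of the named genes with a difference of at least 2. No paired analysis was possible because the result comes from no test and no label pairs the cells.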

Other observations

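Arl4d and Gal3st3 were counted in at least 7 Arc-high cells and in 0 of the 14 Arc-low cells. They were named after their values were seen. Arl4d, a small GTPase of the ARF family, was counted in 8 of 13 Arc-high cells (mean log2(CPM+1) 4.95, SD 4.17, against 0.02, SD 0.06). Its rho with Arc was 0.57, and its difference was 4.93 in saline EGFP-, 3.07 in KA EGFP- and 3.39 in KA EGFP+ cells. It missed the rule for measured genes by 1 cell. Gal3st3, a sulfotransferase, was counted in 7 of 13 and differed by 3.16, 2.75 and 1.17 in the same sets. The reverse pattern, at least 7 Arc-low cells and 0 Arc-high cells, was met by 35 genes. Both patterns were searched among all 22870 genes, without the rule for measured genes. Arc-low cells had more genes counted after thinning, a median of 5463 against 3775, and they were 14 against 13 cells. The count of 35 against 2 is therefore not read as a result about these genes. Among the 35 genes Galt was counted in 9 Arc-low cells, Ddt, a tautomerase, in 10 and Tln1, the cytoskeletal linker talin, in 7. Their differences were -4.59, -4.26 and -2.89 in saline cells and 0.01, -0.44 and 1.16 in KA EGFP- cells. The median of all genes was 1.20 in KA EGFP- and 0.66 in KA EGFP+ cells.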
